A study of Mus musculus with 6 samples.

Results

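The mitochondrial genome was described from every deposited read aligned to chrMT. It is 16299 bp long and was cut into 326 bins of 50 bp, the last of 49 bp, and each read was counted in the bin that holds its midpoint. Of 179776439 aligned reads in 6 libraries, 192374 lay on chrMT. The reads come from hippocampal chromatin of C57/BL6 mice with a labelled age of 6 months. FC mice received contextual fear conditioning with foot shocks in a pair of sessions, and CON mice saw the context alone. Tissue was taken after the memory test on the last day. Each group had 1 library precipitated with an antibody to acetylated lysine 5 of histone H4 (H4K5ac-ChIP), 1 precipitated with IgG (IgG-IP) and 1 of DNA that was not precipitated (input). The methods describe 1 protocol for both groups, with formaldehyde fixation, a spin after cell lysis that precedes the lysis of nuclei, and shearing. They give several hippocampal samples per group, against 1 deposited library. There are thus no replicates. All intervals below are exact 95% binomial intervals that cover counting error only, and differences compare libraries, not conditions.

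Mitochondrial DNA is a closed circle present in many copies per cell. It is packed by the protein TFAM and not by nucleosomes, so it holds no histone H4 for the antibody to bind. It carries 37 annotated genes, which are 13 protein-coding genes for subunits of the respiratory chain and of ATP synthase, 2 rRNA genes and 22 tRNA genes. All but 9 of the genes lie on the plus strand. The control region between mt-Tp and mt-Tf is the main noncoding stretch and holds the promoters and the origin of the heavy strand. Copies of mitochondrial DNA are also found in the nuclear chromosomes, where they are packed in nucleosomes like their surroundings. A read that matches both places equally well cannot be placed.

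The bins with the most reads and a bin without any show which mitochondrial sequence the libraries could see. The sequences were read from the reference genome of build mm9, plus strand. Capitals mark bases that differ from the nearest nuclear match. The first 3 had the highest mean share of mitochondrial reads over the 6 libraries, and the fourth was taken from the longest empty run, since all empty bins are tied.
chrMT:201-250 in mt-Rnr1: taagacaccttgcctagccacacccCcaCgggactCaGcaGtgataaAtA
chrMT:12851-12900 in mt-Nd5: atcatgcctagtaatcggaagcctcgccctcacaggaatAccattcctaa
chrMT:14301-14350 in mt-Cytb: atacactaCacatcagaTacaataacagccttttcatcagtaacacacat
chrMT:7901-7950 across mt-Atp8 and mt-Atp6: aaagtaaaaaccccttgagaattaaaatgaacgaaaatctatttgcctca
The bin in mt-Rnr1 has 7 such bases, that in mt-Nd5 has 1 and that in mt-Cytb has 2. The bin in mt-Atp8 and mt-Atp6 has 0, since chromosome 1 holds the same 50 bases. It held 0 reads in every library. The bin in mt-Rnr1 held 22, 55 and 639 reads in FC H4K5ac-ChIP, IgG-IP and input, and 18, 89 and 641 in CON.

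Mitochondrial reads were rarest in the H4K5ac-ChIP libraries. In FC, chrMT took 1727 reads of H4K5ac-ChIP, or 0.00546% of the library (0.00521 to 0.00573), 7776 reads of IgG-IP, or 0.0534% (0.0523 to 0.0547), and 60293 reads of input, or 0.132% (0.131 to 0.133). In CON, it took 1917 reads of H4K5ac-ChIP, or 0.00533% (0.0051 to 0.00558), 14885 of IgG-IP, or 0.0903% (0.0888 to 0.0917), and 105776 of input, or 0.298% (0.296 to 0.300). The order was the same in both groups, with input highest and H4K5ac-ChIP lowest, and no intervals of different library types overlapped. Input was highest only with repeated reads kept. With each position and strand counted once it held 0.0380% in FC and 0.0615% in CON, below IgG-IP with 0.0463 and 0.0655%. That count has a ceiling, as chrMT offers 32598 combinations of position and strand. Of those outside near-identical copies, input used 71.05% in FC and 89.4% in CON, and IgG-IP 26.4 and 44.3%. The count thus does not rank input and IgG-IP on equal terms. Per base of reference sequence, the mitochondrial genome was still read 8.21 and 8.01 times as densely as the autosomes in FC and CON H4K5ac-ChIP. The corresponding values were 81.4 and 137 in IgG-IP, and 199.5 and 454 in input. All of these divide by the whole genome, including 99 bins without a read in any library. Bins without a near-identical nuclear copy averaged 1.55 to 1.56 times the mean bin. The number of mitochondrial genomes per cell was not measured, so these densities cannot be read per copy.

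**Figure D1:**
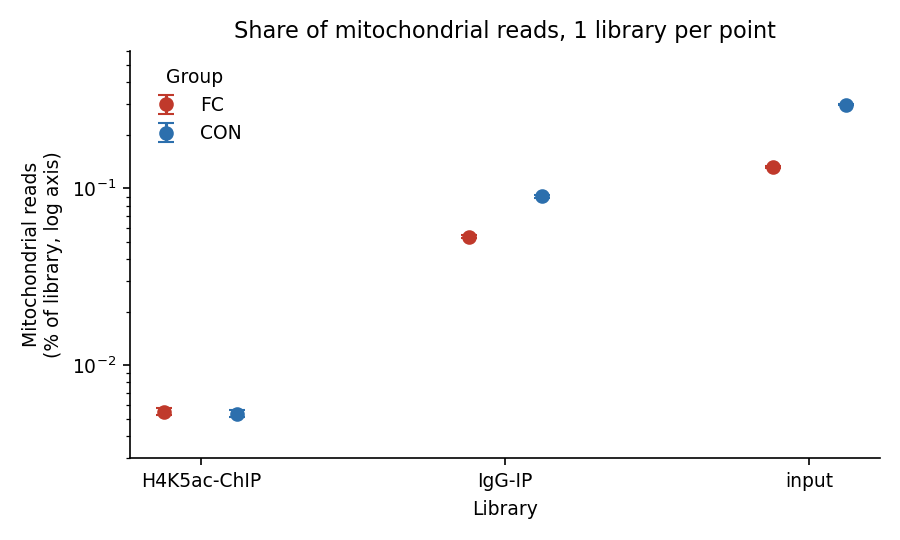
Mitochondrial reads as a percentage of each library, on a log axis, for H4K5ac-ChIP, IgG-IP and input of FC (red) and CON (blue). Points are single libraries and bars are exact 95% binomial intervals, many smaller than the point. Shares rise from 0.00533 to 0.00546% in H4K5ac-ChIP to 0.132 and 0.298% in input.

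Relative to autosomal reads, H4K5ac-ChIP held 4.12% (3.92 to 4.32) of the mitochondrial reads of input in FC and 1.77% (1.69 to 1.85) in CON. This is 24.3-fold (23.2 to 25.5) and 56.6-fold (54.1 to 59.3) fewer. IgG-IP held 40.8% (39.9 to 41.8) in FC and 30.3% (29.75 to 30.8) in CON, 2.45-fold and 3.30-fold fewer than input. Compared with IgG-IP, H4K5ac-ChIP held 9.92-fold (9.41 to 10.45) fewer mitochondrial reads in FC and 17.1-fold (16.35 to 17.99) fewer in CON. Relative to autosomal reads, both precipitations were thus below input, and H4K5ac-ChIP was well below the mock precipitation. The yield of DNA from each precipitation is not given, so these ratios do not say how much mitochondrial DNA each brought down. Values changed with the treatment of repeated reads. When each position and strand was counted once, H4K5ac-ChIP over input moved on the log2 scale from -4.60 to -2.85 in FC and from -5.82 to -3.59 in CON, and that of IgG-IP turned from -1.29 to 0.30 in FC and from -1.72 to 0.094 in CON. Input reads filled most positions outside near-identical nuclear copies (values under repeats). The part of this in the change was not tested.

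Nuclear chromatin gave the scale for these ratios. The autosomes were cut into windows as long as the mitochondrial genome, and 144218 windows with at least 50 reads in both inputs were compared. For H4K5ac-ChIP over input the median window was at -0.22 in FC and -0.21 in CON (log2). More than 4-fold lower than input were 1513 windows in FC (1.05%) and 6037 in CON (4.19%), while the mitochondrial genome was 24.3-fold and 56.6-fold lower. Only 1 window in FC and 0 in CON lay at or below the mitochondrial value, with repeated reads kept. Counted once per position and strand, the mitochondrial log2 ratios were -2.85 and -3.59, and the windows were not compared in that way. Windows free of annotated genes (67137 windows) had medians of -0.57 and -0.79, compared with 0.17 and 0.31 for windows that overlap a gene. With repeated reads kept, gene-free nuclear DNA was therefore far above mitochondrial DNA, at log2 ratios of -4.60 and -5.82.

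For IgG-IP over input the median window had a log2 ratio of 0.00034 in FC and -0.036 in CON. Windows more than 2-fold lower made up 3.85% in FC (5550) and 0.0159% in CON (23). In FC, 699 windows (0.485%) lay at or below the mitochondrial value of -1.29, and in CON 2 windows lay at or below -1.72. This holds with repeated reads kept. Counted once per position and strand, the mitochondrial values were 0.30 and 0.094, and the windows were not compared in that way. The FC windows spread more widely, from -1.204 at their first percentile to 1.34 at the 99th, than those of CON, from -0.58 to 0.54.

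**Figure D2:**
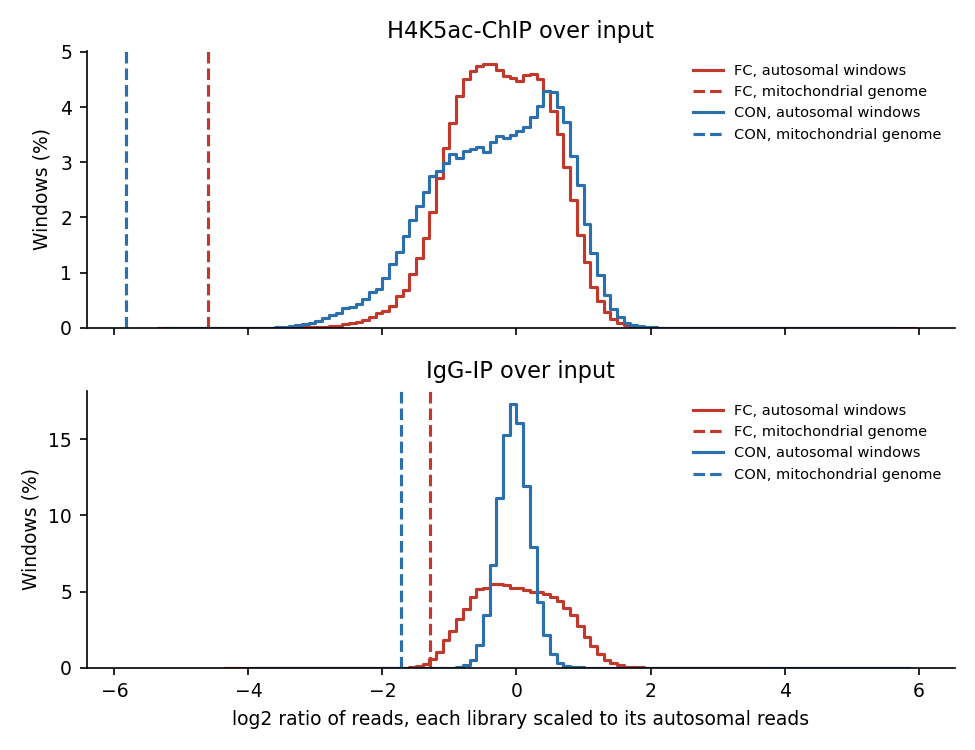
Distribution of the log2 ratio of H4K5ac-ChIP (top) and IgG-IP (bottom) over input across autosomal windows of 16299 bp, as a percentage of windows, for FC (red) and CON (blue). Dashed lines mark the mitochondrial genome, at -4.60 (FC) and -5.82 (CON) in the top panel and -1.29 and -1.72 in the bottom panel. With repeated reads kept, as shown, they lie left of nearly all windows.

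Base composition moved with these ratios. The mitochondrial genome has a GC content of 36.7%, and 18061 of the windows were within 1 percentage point of it. On the log2 scale, IgG-IP over input had a median of 0.75 in FC and 0.081 in CON in these windows. H4K5ac-ChIP over input had -0.50 and -1.03. The reference was then changed to the pooled reads of all autosomal windows of like GC content, without the minimum of input reads. With this choice, made after seeing the data, the mitochondrial log2 ratio was -4.39 in FC and -5.06 in CON for H4K5ac-ChIP. It was -2.31 and -1.94 for IgG-IP. The order of the groups changed for IgG-IP, and the gap between FC and CON for H4K5ac-ChIP narrowed.

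The groups differed in input and hardly in H4K5ac-ChIP. Relative to autosomal reads, the FC library over the CON library gave a ratio of 1.02 (0.960 to 1.09) for H4K5ac-ChIP, 0.593 (0.577 to 0.609) for IgG-IP and 0.439 (0.435 to 0.444) for input. The interval for H4K5ac-ChIP included equality, while FC input held 2.28-fold fewer mitochondrial reads than CON input. The higher ratio over input in FC than in CON thus rested on the input libraries. On the log2 scale the mitochondrial differences were 0.036, -0.75 and -1.19. Windows of like GC content had medians of -0.11, 0.044 and -0.62, so input also differed between the groups in nuclear DNA of this composition. With 1 library per group, training and library cannot be told apart.

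With repeated reads kept, the densest nuclear windows behaved unlike the mitochondrial genome in the mock precipitation. In 13 windows, input held at least 10 times the median number of reads in both groups. These windows were chosen by their input reads, which favours low ratios over that input. Their median log2 ratio of H4K5ac-ChIP over input was -1.16 in FC and -2.30 in CON, lower than gene-free DNA and above the mitochondrial genome. Over IgG-IP it was -3.64 and -3.27, next to -3.31 and -4.10 for the mitochondrial genome. In IgG-IP over input the dense windows had medians of 2.55 and 0.91, opposite in sign to the mitochondrial -1.29 and -1.72. They ran from -0.34 to 3.34 in FC and from 0.16 to 1.07 in CON. With 1 read per position and strand the mitochondrial values were 0.30 and 0.094, and the dense windows were not compared in that way.

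A large part of the mitochondrial genome was not seen in any library. No read fell in 99 of the 326 bins in the input libraries, and the same 99 bins held 0 reads in all 6 libraries. Every one of them lay in a nuclear alignment of 97.4% identity or more. Identity here is that of the whole alignment over a bin, not of the bin alone. Of 104 bins with a nuclear match of at least 99% identity, 93 were empty. Of 47 bins with 97 to 99%, 6 were empty, and among all bins below 97% or without a match 0 were. The empty bins formed 11 runs, of which the longest had 59 bins at chrMT:6451-9400, from the end of mt-Co1, the catalytic subunit of complex IV, to mt-Tg. Runs of 23 bins at chrMT:9851-11000 and 6 bins at chrMT:9501-9800 followed.

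These 3 runs lie inside 1 nuclear copy. It spans chr1:24618374-24623027 on the minus strand of mm9, matches chrMT:6390-11042 and is 99.9% identical, with 3 differences in 4654 aligned bases. Reads wholly inside the matching mitochondrial stretch numbered 6, 31 and 127 in FC H4K5ac-ChIP, IgG-IP and input, and 11, 89 and 503 in CON. Even coverage of the mitochondrial genome would have put 493, 2220 and 17212 reads there in FC and 547, 4249 and 30197 in CON. Every read inside the stretch covered a difference, and 0 reads lay elsewhere in it in any library. The copy on chromosome 1 was nearly empty, with 0, 0 and 2 reads in FC and 2, 1 and 2 in CON. At the mean autosomal density it would have held 60.05, 27.3 and 86.3 reads in FC and 68.3, 30.9 and 66.55 in CON. The methods count uniquely mapped reads and also state that reads with several placements were written out. Which of these the deposited reads are is not given in the sources used here.

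The differences that let reads be placed, chosen after their reads were seen, are shown in pairs, each mitochondrial stretch above its nuclear copy written on the mitochondrial strand. Capitals mark the base that differs.
chrMT:9437-9486 in mt-Tg and mt-Nd3: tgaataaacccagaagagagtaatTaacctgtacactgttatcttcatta
chr1:24619931-24619980: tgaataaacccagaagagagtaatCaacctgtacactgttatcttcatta
chrMT:9805-9853 in mt-Nd3 and mt-Tr: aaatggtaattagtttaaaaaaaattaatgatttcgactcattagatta
chr1:24619563-24619612: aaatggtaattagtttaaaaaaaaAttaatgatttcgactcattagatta
The first pair differs by T9461C, with the mitochondrial base first and positions counted from the first base of mt-Tf. In the second pair the nuclear copy holds an extra A in the run of A in mt-Tr, the tRNA gene for arginine. The remaining difference, A6393T in mt-Co1, lies at the edge of the copy. Over T9461C there were 3, 19 and 89 reads in FC H4K5ac-ChIP, IgG-IP and input, and 10, 56 and 328 in CON. Over the extra A there were 2, 11 and 16 reads in FC and 1, 29 and 149 in CON. All of those over the extra A were on the minus strand, with 0 plus-strand reads in any library. At T9461C both strands were present in the IgG-IP and input libraries of both groups.

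Counting differences base by base gave a sharp step. For each start position, the 50 bases of a full-length read were compared with all nuclear matches. At 5808 positions the 50 bases had an identical nuclear copy, and 0 full-length reads began there in any of the 6 libraries. At 1318 positions with 1 difference, reads per position were 83.7, 72.85 and 77.9% of those at positions without a nuclear alignment in FC H4K5ac-ChIP, IgG-IP and input. In CON they were 117, 82.5 and 80.7%. From 2 differences upwards the values ranged from 87.4 to 143%. A single difference was thus enough for most reads to be kept, and the step was at the same place in precipitated and input libraries.

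**Figure D3:**
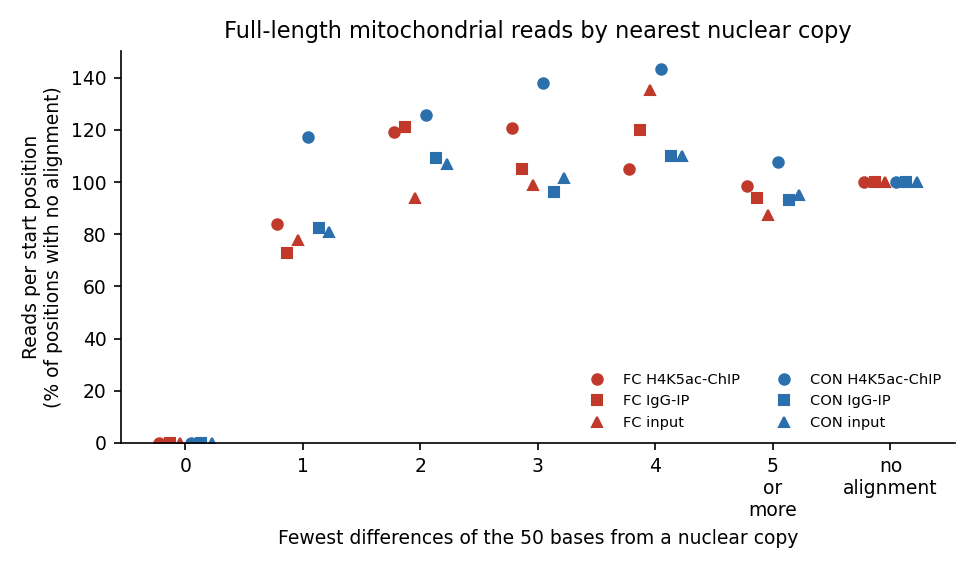
Full-length mitochondrial reads per start position, as a percentage of positions with no nuclear alignment, against the fewest differences of the 50 bases from a nuclear copy. Circles are H4K5ac-ChIP, squares IgG-IP and triangles input, for FC (red) and CON (blue). All 6 libraries are at 0 without a difference and between 72.85 and 117% with 1.

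Among copies of at least 95% identity, the next longest allowed matching stretches to be compared in the nucleus and in the mitochondrion. The copy at chr2:22442808-22446054 (97.4% identity) matches chrMT:4441-7699. From chrMT:6451 on this stretch was empty in every library, so its mitochondrial reads do not cover the whole match. The copy held 6, 20 and 33 reads in FC H4K5ac-ChIP, IgG-IP and input, and 13, 26 and 67 in CON. Relative to autosomal reads, its log2 ratio of H4K5ac-ChIP over input stood at -1.94 (-3.48 to -0.66) in FC and at -2.40 (-3.39 to -1.53) in CON. The matching mitochondrial stretch, with 193 and 218 H4K5ac-ChIP reads, had -4.53 (-4.74 to -4.32) and -5.88 (-6.08 to -5.68). For the copy at chr13:85266167-85267120 (95.2% identity) there were 5, 5 and 18 reads in FC and 17, 3 and 16 in CON. Its log2 ratio was -1.33 (-3.11 to 0.16) and 0.050 (-1.02 to 1.13), against -4.86 (-5.09 to -4.63) and -5.94 (-6.17 to -5.72) for the stretch at chrMT:12446-13400. In both pairs and both groups, with repeated reads kept, the intervals of the nuclear copy lay above those of the mitochondrial stretch. With 1 read per position and strand the whole mitochondrial genome stood at -2.85 in FC and -3.59 in CON. The pairs were not compared in that way. Whether some reads on these copies were mitochondrial reads with errors was not tested.

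Coverage of the bins without a near-identical copy varied within every library and differed in shape between libraries. Identity is that of the whole alignment, so whether each of these bins can be read was not tested. Over the 155 bins without a nuclear match of 95% identity or more, the lowest, median and highest numbers of reads were 0, 8 and 24 for H4K5ac-ChIP of FC, 1, 38 and 71 for its IgG-IP and 3, 244 and 1002 for its input. In CON they were 0, 8 and 25, then 5, 73 and 111, and 43, 526 and 830. The bin at chrMT:14051-14100, in an alignment of 93.0% identity, held 0, 1 and 3 reads in FC and 0, 5 and 43 in CON. The coefficient of variation over the 155 bins was 0.619, 0.355 and 0.709 in FC and 0.548, 0.284 and 0.332 in CON. Counting error alone would give 0.349, 0.164 and 0.0591 in FC and 0.332, 0.119 and 0.0445 in CON. With repeated reads kept, FC input was thus the most uneven library over these bins. Over all bins, with each position and strand counted once, it had 0.803, below H4K5ac-ChIP with 0.983 in FC and 0.915 in CON. Both the bins and the count differ there. The count has a ceiling for input, and counting error is largest in H4K5ac-ChIP, so these values do not rank the libraries on equal terms. Its highest bin, at chrMT:11151-11200 in mt-Nd4, held 1002 reads or 5.42 times its mean bin, and the same bin of CON input held 826 or 2.55 times.

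Pearson's r between libraries, as a description over these 155 bins, was highest for CON IgG-IP with CON input (0.814) and lowest for FC input with CON H4K5ac-ChIP (0.253). The H4K5ac-ChIP libraries of both groups had an r of 0.369, the IgG-IP libraries 0.750 and the inputs 0.636. The bins share base composition, and the H4K5ac-ChIP bins held few reads each. With the GC content of the bin, r was 0.511, 0.422 and 0.659 in FC H4K5ac-ChIP, IgG-IP and input, and 0.310, 0.409 and 0.574 in CON. From the bins lowest in GC content (60 bins, 18 to 32%) to the highest (51 bins, 42 to 54%), the mean relative to these bins rose from 0.558 to 1.56 in FC input and from 0.804 to 1.201 in CON input. In H4K5ac-ChIP it rose from 0.667 to 1.39 in FC and from 0.854 to 1.19 in CON, and in IgG-IP from 0.837 to 1.17 and from 0.889 to 1.12. The FC input had the steepest rise.

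**Figure D4:**
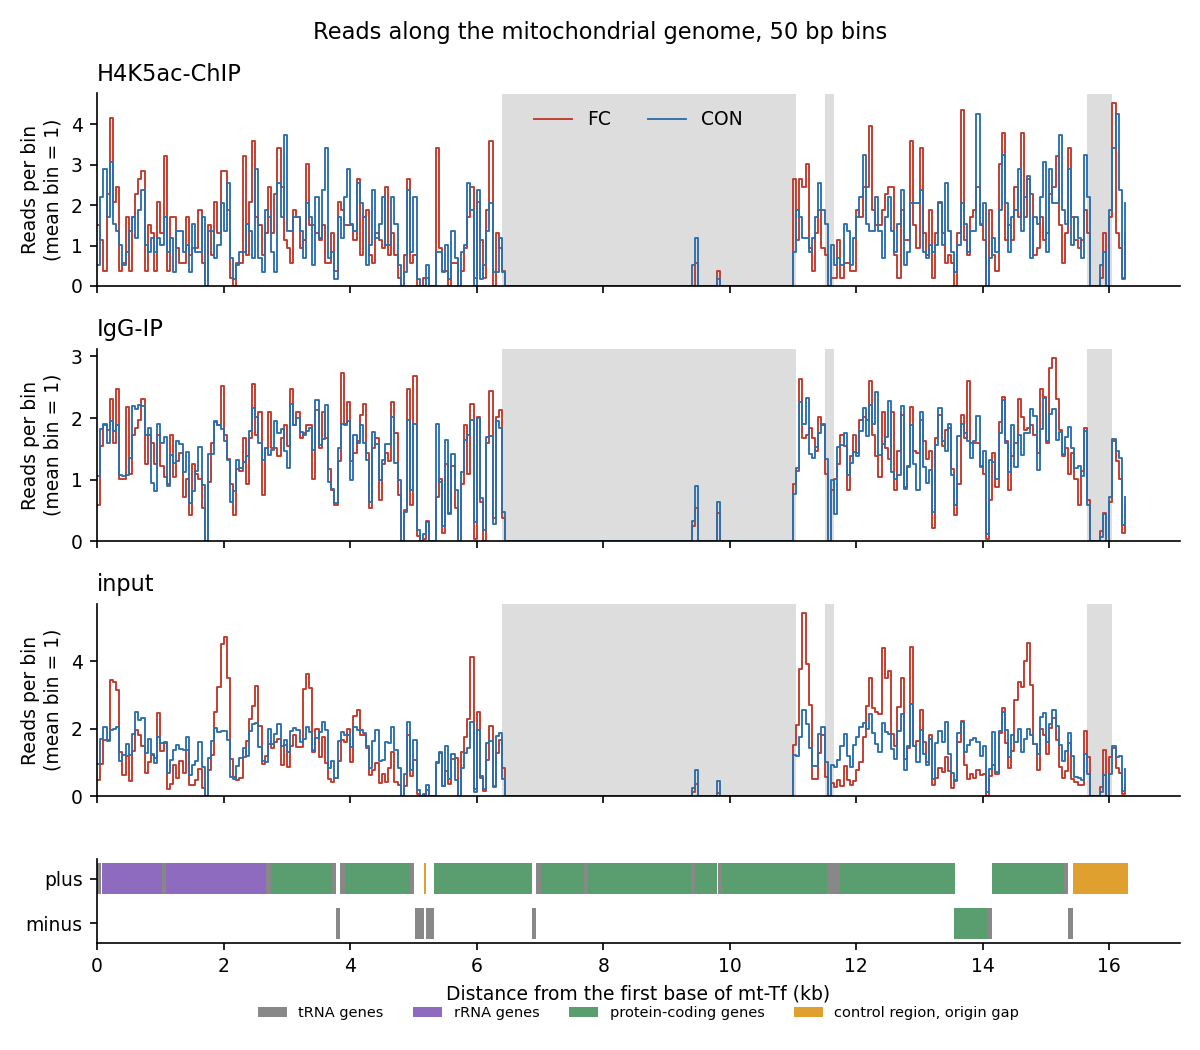
Reads per 50 bp bin relative to the mean bin along the mitochondrial genome in H4K5ac-ChIP, IgG-IP and input for FC (red) and CON (blue), each panel on its own scale, with the annotated genes by strand below. Grey marks bins with a nuclear match of at least 99% identity, 93 of 104 of which held 0 reads in every library. The tallest bins of FC input reach 5.42 times the mean.

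Levels of the genes are given as reads per base relative to the mean of the mitochondrial genome, in the order H4K5ac-ChIP, IgG-IP and input of FC and then of CON. That mean includes the 99 bins without a read, and the 155 bins without a near-identical copy averaged 1.55 to 1.56 times it. The rRNA genes, which encode the RNA of the mitochondrial ribosome, were above the mean of the whole genome in every library. mt-Rnr1 had 1.59, 1.69, 1.64, 1.505, 1.66 and 1.69. mt-Rnr2, partly in near-identical copies, had 1.301, 1.28, 1.43, 1.11, 1.35 and 1.32, below the mean of the bins without a near-identical copy. Scaled to mitochondrial reads, H4K5ac-ChIP over input was (log2) -0.042 (-0.28 to 0.18) in FC and -0.17 (-0.39 to 0.053) in CON for mt-Rnr1. For mt-Rnr2 it was -0.14 (-0.34 to 0.057) and -0.26 (-0.46 to -0.056). Only the last of these intervals left out 0.

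Of the 13 protein-coding genes, 8 held reads in every library and 5 held 0 reads in all of them. The empty genes were mt-Co2 and mt-Co3, subunits of complex IV, mt-Atp6 and mt-Atp8 of ATP synthase, and mt-Nd4l of complex I. All lie in the stretch copied on chromosome 1, so no statement on their precipitation is possible. mt-Nd3, also in that stretch, had only 4, 13 and 40 reads in FC and 4, 31 and 170 in CON. The other genes of complex I, apart from mt-Nd4 and mt-Nd6, were above the mean of the whole genome in every library. mt-Nd1 had levels of 1.53, 1.71, 1.67, 1.65, 1.73 and 1.74. mt-Nd2, with 49.2% of its length in near-identical copies, had 1.255, 1.44, 1.11, 1.51, 1.38 and 1.48. mt-Nd5, with 52.4%, had 1.48, 1.57, 1.72, 1.45, 1.51 and 1.60. mt-Nd4, with 65.8%, had 0.6575, 0.656, 0.8755, 0.599, 0.644 and 0.616. mt-Cytb, the mitochondrial subunit of complex III, had the highest levels of the protein-coding genes, 1.86, 1.87, 2.01, 1.97, 1.70 and 1.79, except in CON IgG-IP, where mt-Nd1 was higher. mt-Co1, which lies wholly in near-identical copies and ends in empty bins, had 0.7575, 0.746, 0.842, 0.655, 0.810 and 0.734.

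mt-Nd6, the only protein-coding gene on the minus strand, had levels of 1.56, 1.42 and 0.8735 in FC H4K5ac-ChIP, IgG-IP and input, and 1.56, 1.48 and 1.46 in CON. FC input was low there and the other 5 libraries were alike. Its log2 ratio of H4K5ac-ChIP over input stood at 0.84 (0.51 to 1.15) in FC and at 0.090 (-0.22 to 0.38) in CON, and that of IgG-IP over input was 0.70 (0.53 to 0.87) and 0.017 (-0.099 to 0.13). Among the 7 protein-coding genes with at least 30 reads in both libraries, the interval for H4K5ac-ChIP over input lay above 0 for 1 gene and below 0 for 2 in FC, and in CON for 0 and 0. For IgG-IP over input it lay above 0 for 2 of 7 and below for 4 in FC, and above for 1 of 8 and below for 3 in CON. IgG-IP held more mitochondrial reads than H4K5ac-ChIP, with 7776 against 1727 in FC and 14885 against 1917 in CON. Its intervals are thus narrower, and the counts of the 2 precipitations cannot be compared. Intervals clear of 0 were not counted in nuclear stretches of like depth, so the counts have no background to be read against. The values ranged from -0.41 to 0.84 and from -0.16 to 0.14 for H4K5ac-ChIP in FC and CON.

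The 22 tRNA genes are short, and 5 of them held 0 reads in any library. None reached 30 reads in H4K5ac-ChIP. In IgG-IP of FC 9 did, and the interval over input lay above 0 for 4 of them and below for 0. In CON 13 did, with 2 above and 1 below. These counts also lack a nuclear background. As a class they had 127, 534 and 2875 reads in FC and 133, 1069 and 7391 in CON. Their levels were 0.799, 0.746 and 0.518 in FC and 0.753, 0.780 and 0.759 in CON, so that FC input was again the lowest. Chosen for their reads, the highest were mt-Tv, mt-Tp and mt-Tl1 in FC H4K5ac-ChIP, with 21, 20 and 18, and these genes had 8, 17 and 13 in CON.

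The control region had a higher level in H4K5ac-ChIP than in IgG-IP and input of the same group. It lies at chrMT:15423-16299 and held 102, 283 and 1985 reads in FC H4K5ac-ChIP, IgG-IP and input, and 149, 616 and 3398 in CON. Its levels were 1.10, 0.676 and 0.612 times the mitochondrial mean in FC and 1.445, 0.769 and 0.597 in CON. In its 427 bases without a near-identical copy, the levels relative to all such bases were 0.972, 0.606 and 0.365 in FC and 1.26, 0.743 and 0.539 in CON. Only CON H4K5ac-ChIP was above the mean of these bases. Scaled to mitochondrial reads, the log2 ratio of H4K5ac-ChIP over input stood at 0.84 (0.54 to 1.13) in FC and at 1.28 (1.03 to 1.51) in CON, that is 1.79-fold and 2.42-fold. In FC other features had like or higher ratios, with 0.84 for mt-Nd6, 1.18 (0.44 to 1.83) for mt-Tp and 1.09 (0.38 to 1.72) for mt-Tv, the last 2 from 20 and 21 H4K5ac-ChIP reads. In CON these had 0.090, 0.37 (-0.42 to 1.06) and -0.68 (-1.90 to 0.31). For the control region, the ratio of IgG-IP over input was 0.14 (-0.040 to 0.33) and 0.37 (0.24 to 0.49). Over IgG-IP in place of input, H4K5ac-ChIP had 0.70 (0.36 to 1.03) and 0.91 (0.64 to 1.17). With 1 read per position and strand the ratio over input was 0.50 (0.16 to 0.84) and 0.70 (0.42 to 0.97), and in bins without a near-identical nuclear copy 1.41 (1.03 to 1.77) and 1.23 (0.92 to 1.52). Relative to autosomal reads the control region stayed far below input, as did the whole genome. The bin with the most reads in FC H4K5ac-ChIP lay here, at chrMT:16051-16100 with 24 reads, and the bin at chrMT:16101-16150 shared the highest count in CON H4K5ac-ChIP with 1 in mt-Nd6, with 25 reads each.

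The short gap between mt-Tn and mt-Tc, where replication of the light strand starts, holds an inverted repeat whose arms are in capitals.
chrMT:5160-5191: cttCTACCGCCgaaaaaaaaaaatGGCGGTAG
Each arm is 8 bases long. The gap lies in the stretch copied on chromosome 2 and was almost empty, with 1, 1 and 0 reads in FC H4K5ac-ChIP, IgG-IP and input, and 0, 4 and 7 in CON. No ratio can be read from these counts.

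No bin of 50 bp reached 100 reads in H4K5ac-ChIP, so single bins were not called and segments of 500 bp with at least 30 reads in both libraries were used, chosen after seeing the data. Of 23 segments in FC, 5 (21.7%) were more than 1.5-fold higher in H4K5ac-ChIP than in input relative to mitochondrial reads and 1 (4.35%) was more than 1.5-fold lower. In CON, 2 of 23 (8.70%) were higher and 0 lower. The segment from chrMT:16001 to the end had the highest log2 ratio in both groups, with 1.15 (0.72 to 1.55) from 53 and 834 reads in FC and 1.38 (1.04 to 1.69) from 83 and 1766 reads in CON. Its neighbour at chrMT:15501-16000 had 0.33 (-0.20 to 0.80) and 1.22 (0.79 to 1.62). Both lie in the control region. The other FC segments past 1.5-fold were not past it in CON. With IgG-IP in place of input, 1 segment was higher and 0 lower in FC, and 2 were higher and 0 lower in CON. Counting each position and strand once left 0 segments past 1.5-fold in FC and 2 in CON. For IgG-IP over input, 3 of 24 segments were higher and 1 lower in FC, and 0 of 25 in either direction in CON. The FC ratios share the uneven FC input.

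**Figure D5:**
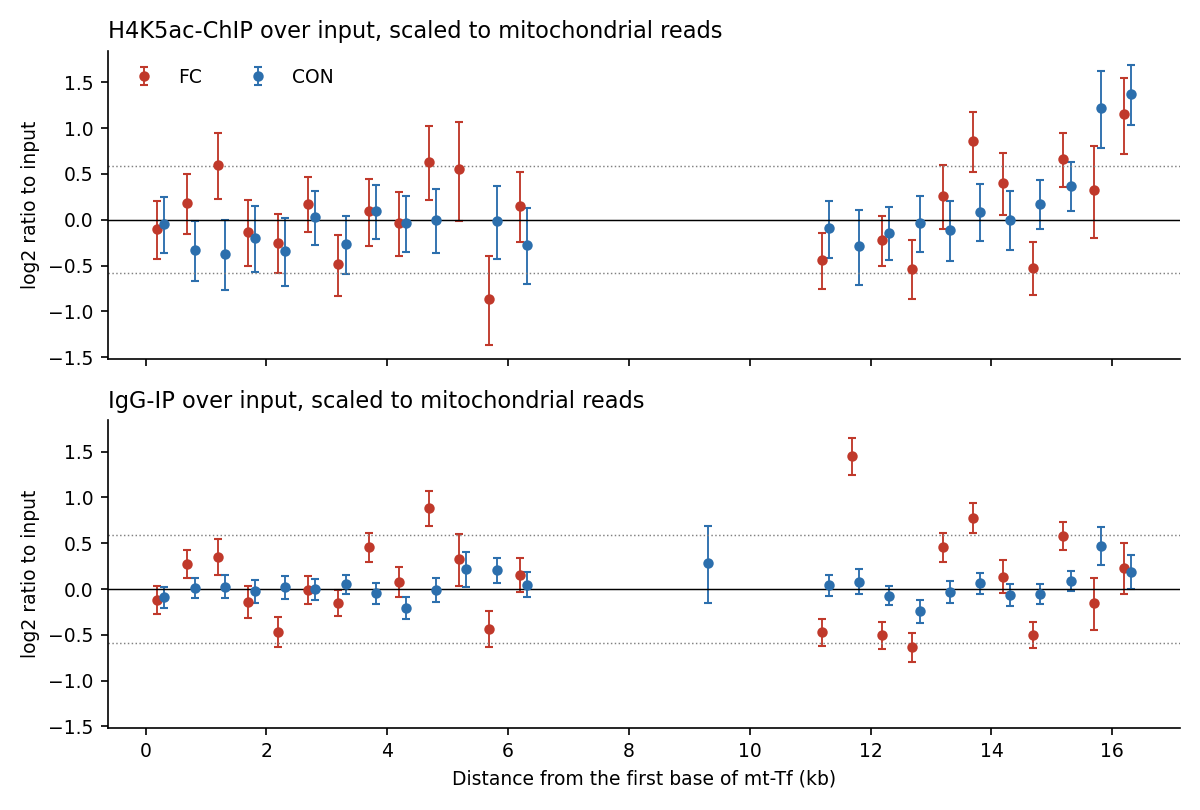
Log2 ratio of H4K5ac-ChIP (top) and IgG-IP (bottom) over input, scaled to mitochondrial reads, in segments of 500 bp for FC (red) and CON (blue). Points are single comparisons with exact 95% binomial intervals and dotted lines mark 1.5-fold. The last segment, in the control region, has the highest H4K5ac-ChIP ratio in both groups, 1.15 and 1.38.

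Strand balance differed between libraries and along the genome. The plus strand took 55.8% (53.4 to 58.2), 50.6% (49.5 to 51.7) and 50.85% (50.5 to 51.2) of FC H4K5ac-ChIP, IgG-IP and input reads. In CON it took 51.1% (48.8 to 53.3), 47.4% (46.6 to 48.2) and 48.9% (48.6 to 49.2). The autosomes had 50.1 to 50.2% in all libraries. FC H4K5ac-ChIP was highest and CON IgG-IP lowest, and with 1 read per position and strand they had 54.2% (51.6 to 56.8) and 48.8% (47.8 to 49.8). Counted this way, both inputs included an equal share in their intervals, with 50.04% (49.2 to 50.8) in FC and 50.1% (49.4 to 50.8) in CON. Among full-length reads, CON IgG-IP and CON input changed side, with 53.8 and 55.4% on the plus strand. In segments of 500 bp the share ran from 33.3 to 73.6% (FC) and from 40.7 to 66.2% (CON) with the antibody, and from 42.25 to 66.7% and 39.1 to 55.4% in IgG-IP. Input ran from 42.6 to 83.95% in FC, highest at chrMT:15501-16000, and from 0 to 60.6% in CON. The share of 0% belongs to chrMT:9501-10000, where all 149 reads covered the extra A.

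Aligned length differed between the strands on chrMT and not on the autosomes. Plus-strand reads were aligned over 47.0, 47.4 and 47.5 bp on average in FC H4K5ac-ChIP, IgG-IP and input and 46.9, 47.3 and 47.6 bp in CON. Minus-strand reads had 45.7, 46.1 and 46.3 bp in FC and 45.6, 46.0 and 46.4 bp in CON. The plus-strand mean was thus longer in all 6 libraries by more than 1 bp. On the autosomes the means ran from 45.4 to 46.0 bp on either strand. Among reads aligned over the full 50 bp, the plus strand took 60.9, 56.5 and 56.6% in FC and 59.2, 53.8 and 55.4% in CON. The plus strand of the mitochondrial genome has 34.5% A, 24.4% C, 12.35% G and 28.7% T, so the strands differ in composition. Its part in the aligned length was not tested.

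Repeated positions separated input from the precipitated libraries. Of mitochondrial reads, 17.4% (15.7 to 19.3), 28.8% (27.8 to 29.8) and 75.3% (74.9 to 75.6) came on top of a first read with the same start and strand in FC H4K5ac-ChIP, IgG-IP and input. In CON the shares were 14.5% (12.9 to 16.2), 37.7% (36.9 to 38.5) and 82.3% (82.1 to 82.6). On the autosomes they were 14.4, 17.9 and 13.85% in FC and 11.5, 14.1 and 14.15% in CON. The mitochondrial share was thus near that of the autosomes in H4K5ac-ChIP and far above it in input. The genome offers 32598 combinations of position and strand. Of the 15498 in bins without a near-identical nuclear copy, reads used 6.80, 26.4 and 71.05% in FC H4K5ac-ChIP, IgG-IP and input, and 7.77, 44.3 and 89.4% in CON. Distinct positions numbered 1426, 5539 and 14917 in FC and 1639, 9279 and 18683 in CON. Reads spread evenly over all positions would have used 1682, 6918 and 27470 in FC and 1862, 11950 and 31328 in CON, although the empty bins could not contribute. The tallest stack on a single position held 10, 10 and 31 reads in FC and 6, 9 and 32 in CON, at most 0.579% of the mitochondrial reads of a library.

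Reads on chrMT were placed with lower scores than others. The median mapping quality was 76 in each FC library and 72, 76 and 78 in CON H4K5ac-ChIP, IgG-IP and input, compared with 86 on the autosomes of every library. However, 97.2 to 97.6% of mitochondrial reads had a quality of at least 20, more than the 88.4 to 93.0% of autosomal reads.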

How the data were processed

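Per the methods, SOLiD reads of 50 bp were mapped with Bioscope (mm9), and the authors deposited the aligned reads of each library. The deposited score of a read is its mapping quality, from the authors' alignment. It was used only for a minimum of 20 in an alternative. Reads on chrMT were counted by midpoint in bins of 50 bp with Python 3.11.15 and NumPy 2.4.6, and repeated reads were kept. Library depth was 14549689 to 45673239 reads. Ratios were scaled to autosomal reads, or to mitochondrial reads within the genome, and exact 95% intervals came from SciPy 1.17.1. With 1 library per group there was no test across samples. Nuclear matches were found with BLAST 2.17.0 (word size 20, E value 1e-05) against the reference of the same build, and bins with at least 95% identity were called near-identical. The identity of a bin was that of the whole alignment over it. Samples were grouped by their labels. Scripts were tested on simulated data. Named were the annotated genes by class, both noncoding regions, the 3 bins with the most reads and the longest nuclear copies of at least 95% identity. Bins by ratio, with at least 100 reads, could not be named or called, since no H4K5ac-ChIP bin held more than 25 reads, and the lowest bins were tied at 0. The genome, lists and rules were chosen with earlier results of these data known.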

Additional observations from a re-analysis of the deposited data

Results flagged for a closer look

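For 2 of 53 pairs of a gene or region with a precipitation, the ratio to input ran in opposite directions in FC and CON with both counting intervals clear of 0. Both concern IgG-IP over input, scaled to mitochondrial reads. mt-Nd2, a subunit of complex I, had a log2 ratio of 0.37 (0.26 to 0.49) in FC and -0.10 (-0.19 to -0.021) in CON. mt-Co1, the catalytic subunit of complex IV, had -0.17 (-0.30 to -0.046) in FC and 0.14 (0.052 to 0.23) in CON. The difference between the groups was not tested, since each group has 1 library. Both ratios of FC share the FC input and both of CON the CON input.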

How the results depend on the processing

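The log2 ratios of mitochondrial to autosomal reads stayed within their counting intervals with a mapping quality of at least 20, full-length reads, bins without a near-identical copy or all nuclear reads as the reference. With 1 read per position and strand they were -2.85 (FC) and -3.59 (CON) for H4K5ac-ChIP over input, and reversed to 0.30 (FC) and 0.094 (CON) for IgG-IP over input. With the pooled reads of windows of like GC content as the reference they were -4.39, -5.06, -2.31 and -1.94 in the same order. The number of segments past 1.5-fold in FC, 6, fell to 0 with 1 read per position and strand and to 1 with IgG-IP in place of input. In CON, with 2 higher and 0 lower, it was 1 in bins without a near-identical copy, and with full-length reads 1 segment was higher and 1 lower of 18. The causes were not tested.

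Of 24 alternatives for the mitochondrial share of a library, 20 moved it beyond its interval. Input fell below IgG-IP with 1 read per position and strand, a count with a ceiling. In bins without a near-identical copy the library total was kept, so the share had to fall. For the plus-strand share, 10 of 24 alternatives moved it beyond its interval. With full-length reads it crossed an equal share, from 47.4 to 53.8% in CON IgG-IP and from 48.9 to 55.4% in CON input. For repeats 6 of 18 did, all 6 with full-length reads. The coefficient of variation over the bins has no counting interval. In every library it was lowest in bins without a near-identical copy, which leave out the empty bins. In FC input it was 1.114 over all bins, 0.709 in those bins and 0.803 with 1 read per position and strand. With full-length reads it rose in every library, as from 0.955 to 1.14 in CON H4K5ac-ChIP. The planned count of bins of 50 or 100 bp past 1.5-fold gave no value, as 0 bins held 100 H4K5ac-ChIP reads. No paired analysis was possible because each group has 1 library per antibody and no test was made. H4K5ac-ChIP held a median of 8 mitochondrial reads per bin outside near-identical copies in each group, against 38 and 73 in IgG-IP, so single bins are read with less precision there.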
